A study of Homo sapiens with 9 samples.

Results

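Eph receptors are receptor tyrosine kinases, and ephrins are their ligands. Transcripts of 6 Eph receptors (EPHA2, EPHA4, EPHA7, EPHB2, EPHB3 and EPHB4) and 4 ephrins (EFNA1, EFNA5, EFNB1 and EFNB2) are described here, out of 36618 gene names carried by the array. Members were taken by the gene name in the scanner annotation among probes that were not controls. The rule uses no measured value, but members and lists were chosen with earlier results of these data known. Counts of members beside shares of all genes are therefore a description. All 10 genes had at least 1 probe on the array, and 9 of the 10 passed the filter on dim probes. EPHA7 did not pass it and was not tested.

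RNA came from HEK293 cells, an established line derived from human embryonic kidney, and was hybridized to 9 one-color Agilent arrays. The source label of WT replicates 2 and 3 reads HEK294 and HEK295, whereas their titles and cell line label read HEK293, and all 3 WT arrays were taken as HEK293 here. The 3 groups were a line stably expressing HA-tagged MEK1 WT (WT control cells), a line expressing HA-MEK1 F53S (F53S cells) and a line expressing HA-MEK1 K57N (K57N cells), with 3 independent experiments each. F53S is a RASopathy mutation and K57N a cancer mutation of MEK1, the kinase that phosphorylates ERK, and the comparison asks whether the 2 classes of mutation give different steady-state transcript profiles. All 3 lines carried the transgene beside their own MEK1, no agent was added, and each line was derived a single time, so that a difference between lines cannot be told apart from a difference between derivations. The sources used here do not state whether a line was a clone or a pool, nor how often it was derived.

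Ephrins stay attached to the cell that makes them, so that Eph signaling passes between touching cells and runs in both directions, forward through the receptor kinase and reverse through the ephrin. EphA receptors mainly bind the ephrin-A ligands, which are held in the membrane by a lipid anchor, and EphB receptors mainly bind the ephrin-B ligands, which span the membrane. EPHA2 is known as a transcriptional target of RAS-ERK signaling in epithelial cancer cells, and its activation by ephrin-A1 is known to dampen ERK activity.

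All levels are log2 of the processed signal relative to the 75th percentile of the same array, so that 0 stands for that percentile. They compare a probe between arrays and not 1 gene with another. Replicate 1 of every line was hybridized on slide 1, and replicates 2 and 3 of every line on slide 2. Slide 1 was dimmer, with a 75th percentile of 245 to 376 against 695 to 821 on slide 2, and fewer probes were well above background (23711 to 26110 against 27114 to 29319). The SD of the log2 difference across genes was 0.30 to 0.33 between replicates 2 and 3 and 0.61 to 0.90 between replicate 1 and either of them. The slide was therefore also entered as a term in the fit, which lowered the median standard error of a K57N-WT log2 fold change from 0.29 to 0.13. Of 7 transcripts listed as HEK293 markers, 6 were well above background on all arrays and NEFM on 2 of 3 arrays of each line. ALB, MLANA and KLK3 were at background on all arrays, PECAM1 was above it on 2 K57N arrays only, and PTPRC was above it on all 9. MAP2K1, the gene of the transgene, differed between K57N and WT cells by 0.48 (log2, SE = 0.13, limma adjusted p = 0.135, and 0.00758 with the slide as a term). It differed between K57N and F53S cells by 0.40 (adjusted p = 0.308, and 0.0211 with the slide as a term) and between F53S and WT cells by 0.08 (adjusted p = 1.0 in either fit). MAP2K1 was measured by 1 probe, and whether this probe reads the transgene or only the cells' own transcript is not known here. The part of MAP2K1 in the differences between lines was not tested. In bulk RNA, fewer cells expressing a transcript and less of it per cell cannot be told apart.

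EPHA2 and EFNB2 were the 2 members called in any comparison, and their promoter windows are shown for this reason. Each runs from 250 bases before to 50 bases after the annotated RefSeq start, on build GRCh38.p14, and is printed in the direction of transcription. Capitals mark matches to the searched motifs.
EPHA2, chr1:16156020-16156319, minus strand: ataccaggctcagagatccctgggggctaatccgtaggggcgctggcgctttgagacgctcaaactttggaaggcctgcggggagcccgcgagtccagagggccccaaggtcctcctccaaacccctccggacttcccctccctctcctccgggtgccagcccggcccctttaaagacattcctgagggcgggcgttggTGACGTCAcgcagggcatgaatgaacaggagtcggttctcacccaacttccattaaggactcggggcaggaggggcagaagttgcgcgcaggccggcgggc
EFNB2, chr13:106535613-106535912, minus strand: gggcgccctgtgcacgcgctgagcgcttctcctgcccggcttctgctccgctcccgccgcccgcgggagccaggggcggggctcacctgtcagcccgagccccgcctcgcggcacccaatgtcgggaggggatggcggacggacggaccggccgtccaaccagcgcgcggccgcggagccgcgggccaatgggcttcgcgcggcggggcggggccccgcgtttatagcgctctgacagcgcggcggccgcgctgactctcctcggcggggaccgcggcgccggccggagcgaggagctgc
The letters searched on both strands were TGANTCA (AP-1), TGACGTCA (CRE), GCGGGGGCG and GCGTGGGCG (EGR), CCGGAAGT (ETS) and the serum response element. The EPHA2 window held 1 match, a CRE at -51 to -44 from the start, which overlapped no other motif. The EFNB2 window held none, and so did the windows of the other members except for 1 EGR match in 1 of the 2 EPHA4 windows. Of all 35116 promoter windows of this length, 1.85% held the CRE letters, 5.77% the EGR letters, 7.71% AP-1, 4.14% ETS and 1.29% the serum response element. The EFNB2 window was rich in G and C (78.7%, against 64.3% for EPHA2 and a median of 58.7% over all windows). This does not set it apart, as windows of members that were not called ranged from 43% (1 of the 2 EPHA4 windows) to 83% (EPHB2).

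In K57N cells, EPHA2 rose 3.03-fold and EFNB2 rose 2.25-fold over WT control cells. No receptor or ephrin was called lower, and the ephrin-A ligand EFNA1 lay 1.79-fold below its WT level, short of both limits for a call. A gene was called at a Benjamini-Hochberg adjusted p below 0.05 (limma, over all probes) and a difference of more than 2-fold. Thus 2 of 9 members tested were called higher, beside 1.51% of all genes tested, and 0 were called lower, beside 0.739% of all genes. At an unadjusted p below 0.05, limma gave 2 members above WT (EPHA2 and EFNB2) and 2 below it (EFNA1 and EFNA5), beside 6.15% and 7.04% of all genes. The methods' t-test with more than 2-fold gave 2 above and 0 below without adjustment, beside 2.26% and 1.62% of all genes, and 0 in all with it, beside 0.557%. The median log2 fold change of the 9 members was 0.02, and that of all genes was -0.06.

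**Figure D1:**
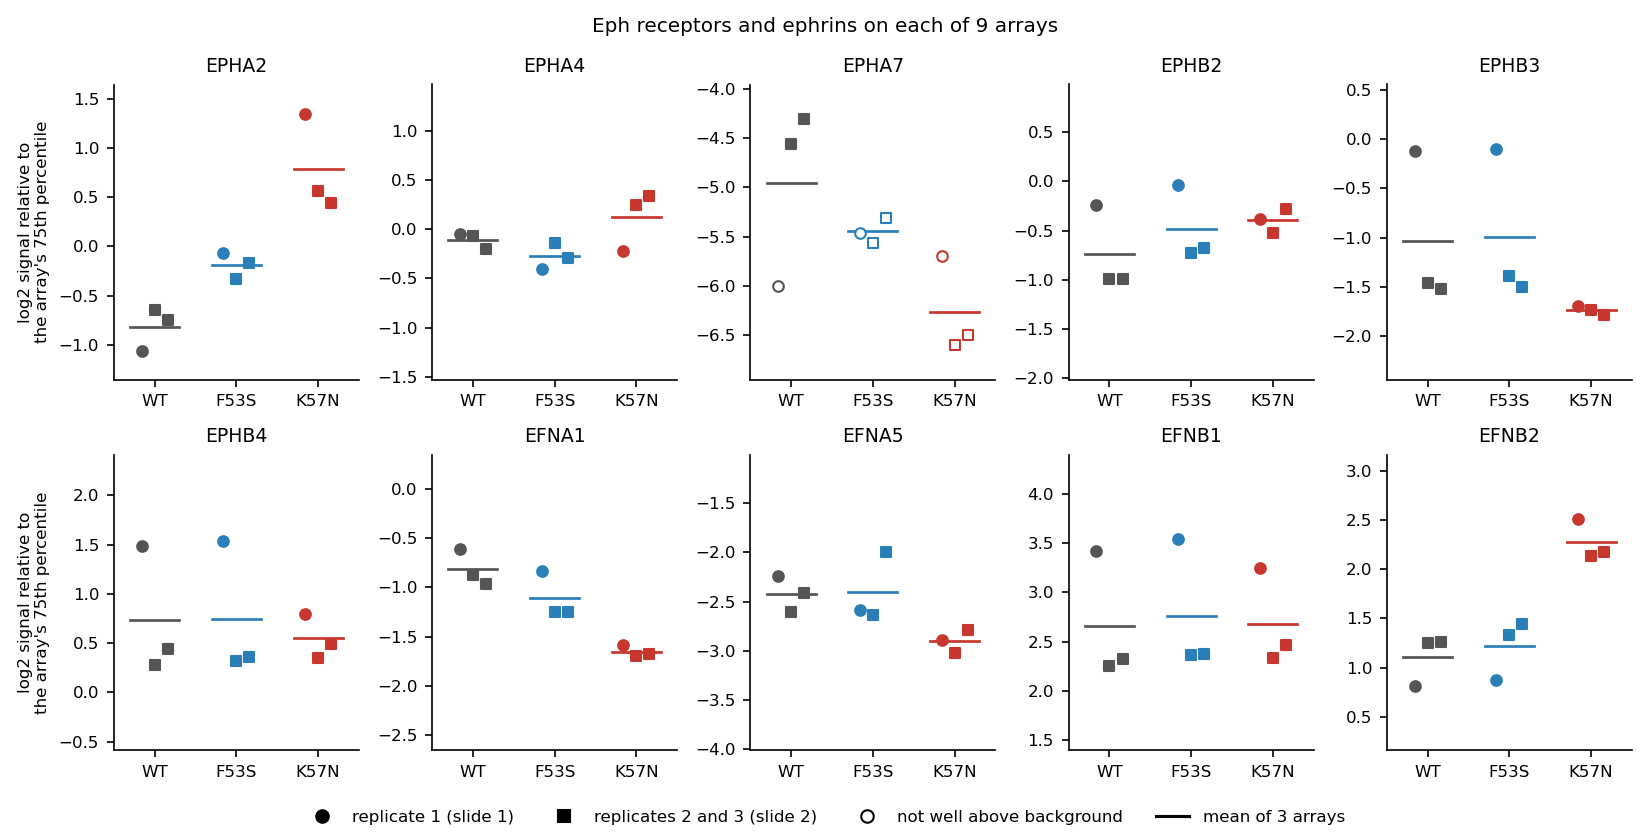
Log2 signal of each Eph receptor and ephrin relative to the array's 75th percentile (y axis, own range per panel) in WT, F53S and K57N cells (x axis). Circles are replicate 1 (slide 1), squares are replicates 2 and 3 (slide 2), open symbols are not well above background, and lines are means of 3 arrays. EPHA2 and EFNB2 are higher on all K57N arrays than on any WT or F53S array, and EFNA1 is lower.

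EPHA2, a receptor for ephrin-A ligands that is frequently overexpressed in carcinomas, is represented by 1 probe whose ends lie 4173 bases apart on the genome (chr1:16451800-16455972, hg19, minus strand), more than its 60 bases. No annotation of this build was used here, so exons and other parts of the genes are not assigned. Its level was -1.06, -0.65 and -0.75 in WT cells (replicates 1, 2 and 3), -0.07, -0.33 and -0.17 in F53S cells, and 1.35, 0.56 and 0.44 in K57N cells. The 3 lines did not overlap, and every F53S array lay between the WT and the K57N arrays. The K57N-WT log2 fold change was 1.60 (SE = 0.26, 95% confidence interval 1.01 to 2.18, adjusted p = 0.0159), above that of 98.7% of all genes. With the slide as a term the adjusted p was 0.00337, and the 2 slides gave different sizes: the difference was 2.40 on slide 1, with 1 array per line, and 1.20 on slide 2 (adjusted p = 0.00301). K57N replicate 1 was the highest array, and without it the log2 fold change was 1.32 (adjusted p = 0.0233).

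EFNB2, the ephrin-B2 ligand of EphB receptors that marks arterial endothelium, was measured by 1 probe (chr13:107142736-107142795, hg19, minus strand). Its level was 0.81, 1.25 and 1.26 in WT cells, 0.88, 1.33 and 1.44 in F53S cells, and 2.51, 2.13 and 2.18 in K57N cells. K57N arrays stood apart from the other lines, whereas WT and F53S arrays overlapped. The K57N-WT log2 fold change was 1.17 (SE = 0.22, interval 0.67 to 1.67, adjusted p = 0.0319), and the adjusted p was 0.00523 with the slide as a term. On slide 2 alone the difference was 0.90 (adjusted p = 0.00284), which is under 2-fold, and on slide 1 it was 1.71. On the slide 2 arrays EPHA2 was therefore called and EFNB2 was not, where 2.43% of all genes were called higher.

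Both calls were lost when certain single arrays were left out. Without the slide, EPHA2 lost its call when WT replicate 1, 2 or 3 or K57N replicate 2 was left out (log2 fold change 1.48, 1.68, 1.63 and 1.71, adjusted p = 0.053, 0.054, 0.066 and 0.0517). EFNB2 lost it for every array left out except F53S replicate 1, with log2 fold changes of 1.02 to 1.25 over all 9 arrays left out and adjusted p of 0.0187 to 0.110. With the slide as a term, a setting chosen after these losses were seen, EPHA2 kept its call for all 9 arrays left out (adjusted p = 0.00319 to 0.0127). EFNB2 then kept it for 8 of 9, and without K57N replicate 1 it stood at 0.89, under 2-fold (adjusted p = 0.000804). The same 2 members were called in the fit with the slide, beside 2.55% of all genes called higher and 1.96% called lower, and in the fit with the replicate number as a block, beside 2.5% called higher.

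EFNA1, the ephrin-A1 ligand of EPHA2, was measured by a probe printed in 10 spots per array (chr1:155106767-155106826, hg19, plus strand). Its level was -0.61, -0.87 and -0.97 in WT cells, -0.83, -1.25 and -1.25 in F53S cells, and -1.58, -1.70 and -1.68 in K57N cells. Every K57N array was below every WT and F53S array, and the SD over the spots of an array was 0.04 to 0.14. The K57N-WT log2 fold change was -0.84 (SE = 0.18, interval -1.25 to -0.43, adjusted p = 0.0544). It ran the same way on the 2 slides (-0.97 on slide 1 and -0.77 on slide 2), and with the slide as a term it passed the p limit (adjusted p = 0.00129) but not the fold limit. In that fit 8.58% of all genes were above and 10.8% below their WT level at an adjusted p under 0.05 alone.

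EFNA5, the ephrin-A5 ligand (probe at chr5:106716419-106716478, hg19), stood at -2.24, -2.60 and -2.41 in WT cells, -2.58, -2.63 and -2.0 in F53S cells, and -2.89, -3.02 and -2.79 in K57N cells. The K57N arrays did not overlap those of either other line, but the log2 fold change of -0.49 from WT did not pass the test (SE = 0.21, adjusted p = 0.364, and 0.111 with the slide as a term). Across the members, the K57N arrays lay wholly above the WT arrays for EPHA2 and EFNB2 and wholly below for EPHB3, EFNA1 and EFNA5. Among all genes, 10.2% were wholly above and 12.7% wholly below.

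Of the other receptors, EPHA4, which binds ephrins of both classes, was at -0.05, -0.07 and -0.20 in WT cells, -0.40, -0.14 and -0.29 in F53S cells, and -0.22, 0.25 and 0.34 in K57N cells. K57N replicate 1 lay among the arrays of the other lines while replicates 2 and 3 lay above them. The K57N-WT log2 fold change was 0.23 (SE = 0.19, adjusted p = 0.764), -0.17 on slide 1 and 0.43 on slide 2 (adjusted p = 0.0308, under 2-fold). EPHB2, a receptor of ephrin-B ligands, was at -0.24, -0.99 and -0.99 in WT cells, -0.04, -0.73 and -0.68 in F53S cells, and -0.38, -0.52 and -0.28 in K57N cells. Its difference from WT was 0.35 (SE = 0.27, adjusted p = 0.744), and its other 2 probes gave 0.33 and 0.26. On slide 2 the difference was 0.59 (adjusted p = 0.0188, under 2-fold) and on slide 1 -0.14, so that EPHA4 and EPHB2 differed in sign between the slides, as EPHB4 and EFNB1 did.

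EPHB3, a receptor of ephrin-B ligands known from the intestinal crypt, was at -0.12, -1.46 and -1.52 in WT cells, -0.10, -1.39 and -1.50 in F53S cells, and -1.69, -1.74 and -1.79 in K57N cells. The 3 K57N arrays lay together below all others, while replicate 1 of WT and of F53S stood far above its own line. The K57N-WT difference was -0.71 (SE = 0.46, adjusted p = 0.647, and 0.103 with the slide as a term), with -1.57 on slide 1 and -0.28 on slide 2. EPHB4, the receptor with which ephrin-B2 sorts arteries from veins, was at 1.49, 0.28 and 0.44 in WT cells, 1.54, 0.32 and 0.36 in F53S cells, and 0.80, 0.35 and 0.49 in K57N cells. Its difference was -0.19 (interval -1.13 to 0.76, and -0.60 to 0.22 with the slide as a term), and its second probe gave -0.26. It was -0.68 on slide 1 and 0.06 on slide 2. EFNB1, the ephrin-B1 ligand, was at 3.42, 2.25 and 2.32 in WT cells, 3.54, 2.36 and 2.37 in F53S cells, and 3.25, 2.33 and 2.47 in K57N cells. It differed by 0.02, with an interval of -1.0 to 1.04 that narrowed to -0.21 to 0.26 with the slide as a term, and was -0.17 on slide 1 and 0.12 on slide 2.

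EPHB2, EPHB3, EPHB4 and EFNB1 shared a slide difference that the K57N line showed less or not at all. Replicate 1 exceeded the mean of replicates 2 and 3 by 0.75, 1.37, 1.13 and 1.14 in WT cells and by 0.66, 1.35, 1.20 and 1.18 in F53S cells. In K57N cells the same differences were 0.02, 0.08, 0.38 and 0.85. Whether the lines differed in this respect was not tested.

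EPHA7, a receptor of ephrin-A ligands, had 3 probes at or near background. The brightest was well above background on WT replicates 2 and 3 (-4.56 and -4.31) and on no F53S or K57N array, a second on F53S replicate 3 only, and the last on none. The lines cannot be ordered for this gene at this signal, and no fold is given.

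**Figure D2:**
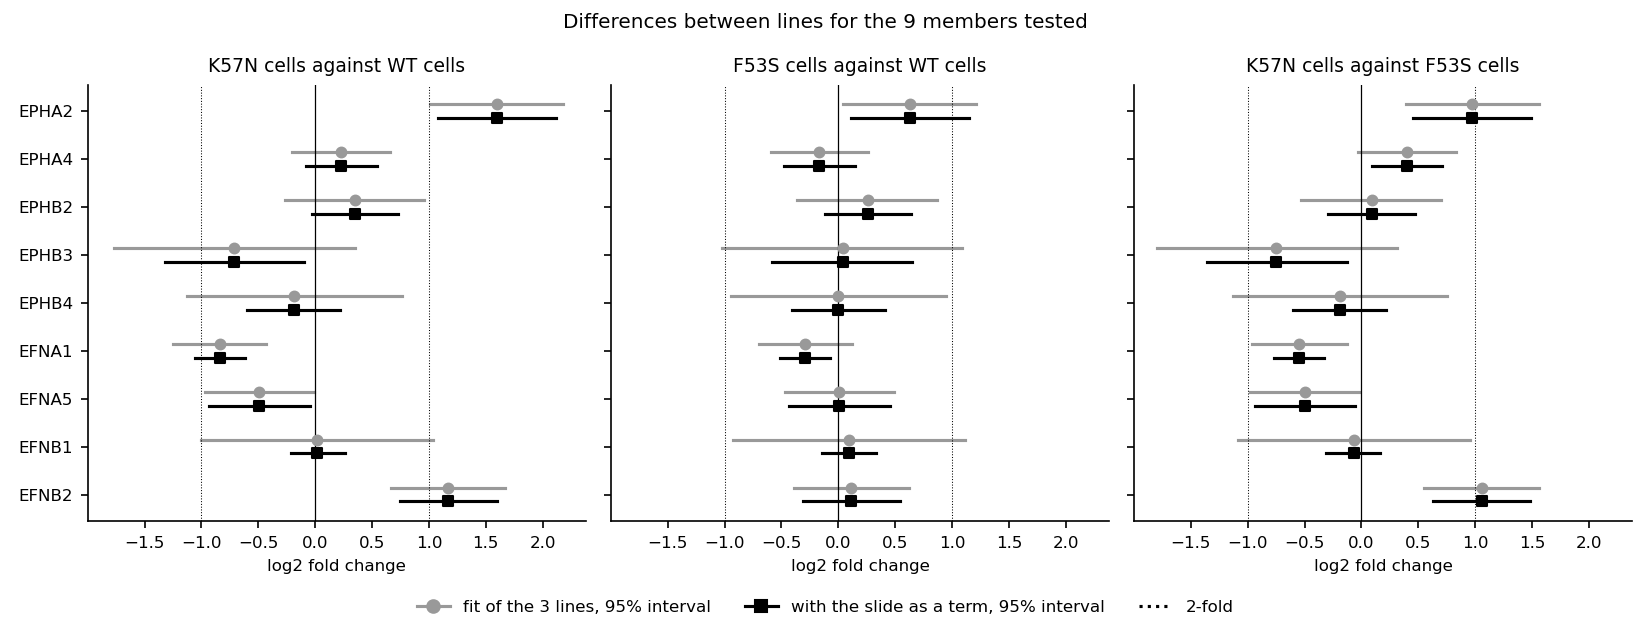
Log2 fold change (x axis) of the 9 members tested (y axis) in each of the 3 comparisons, with 95% confidence intervals from limma. Gray circles are the fit of the 3 lines, black squares the fit with the slide as a term, and dotted lines mark 2-fold. EPHA2 at 1.60 and EFNB2 at 1.17 lie furthest right for K57N cells against WT cells, and EFNA1 at -0.84 lies furthest left.

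In F53S cells, no receptor or ephrin was called against WT control cells, and 8 of the 9 members tested lay within 0.29 of the WT level on the log2 scale. EPHA2 was the exception, at 0.63 above WT (SE = 0.26, interval 0.04 to 1.21), with all 3 F53S arrays above all 3 WT arrays. Its difference was 0.98 on slide 1 and 0.45 on slide 2, and its adjusted p was 1.0, with and without the slide as a term. EPHA2 was the 1 member at an unadjusted p below 0.05 by limma, and it exceeded 98.9% of all genes in log2 fold change. The count over all genes was the same as over the members: 0 genes were called higher and 0 lower (0% each), and 171 of 19209 had an unadjusted p below 0.05 by limma. The methods' t-test called 0 after adjustment. The study itself reports genes above and below WT in F53S cells at the same nominal limits, and the cause of this difference was not tested. Of all genes, 1.53% lay wholly above and 1.62% wholly below their WT arrays. EFNA1 was at -0.29 (SE = 0.18), with an interval of -0.70 to 0.12 that became -0.51 to -0.07 with the slide as a term, and an adjusted p of 1.0 in either fit. EFNB2 differed by 0.11 (interval -0.39 to 0.62), and EPHB3, EPHB4, EFNA5 and EFNB1 by 0.04, 0.00, 0.01 and 0.09.

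Set directly against F53S cells, K57N cells had more EFNB2 and EPHA2 and less EFNA1 signal on every array, but no member was called. EFNB2 differed by 1.06 (2.08-fold, SE = 0.22, adjusted p = 0.0716), EPHA2 by 0.97 (1.96-fold, SE = 0.26, adjusted p = 0.166) and EFNA1 by -0.55 (1.46-fold lower, SE = 0.18, adjusted p = 0.292). At an unadjusted p below 0.05, limma gave 2 members above F53S (EFNB2 and EPHA2) and 2 below it (EFNA1 and EFNA5, the latter at -0.50), beside 4.87% and 5.5% of all genes. The methods' t-test with more than 2-fold gave EFNB2 above and none below without adjustment, beside 1.72% and 0.859% of all genes, and 0 members with it, beside 0.135%. Over all genes, 0.953% were called higher and 0.245% lower, and 8.29% lay wholly above and 10.4% wholly below. With the slide as a term, EFNB2 was called (adjusted p = 0.0114), beside 1.88% of all genes called higher and 1.1% called lower. EPHA2 then passed the p limit just under 2-fold (adjusted p = 0.0317), and so did EFNA1 at its smaller difference (adjusted p = 0.0115). With the replicate block, which pairs arrays of equal number, EFNB2 was called as well (adjusted p = 0.0248), beside 1.81% of all genes, and EPHA2 had an adjusted p of 0.0564. This comparison shares its K57N arrays with the comparison to WT and its F53S arrays with the other.

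A receptor can be set against a ligand of its class within an array, where the scaling of the array cancels. The log2 difference of EPHA2 less EFNA1, relative to its WT mean, was -0.45, 0.22 and 0.22 in WT cells, 0.76, 0.91 and 1.09 in F53S cells, and 2.93, 2.26 and 2.12 in K57N cells. The 3 lines were thus ordered with no overlap, with means of 0.92 ± 0.17 (SD, n = 3) in F53S cells and 2.44 ± 0.43 in K57N cells. EPHA4 less EFNA1 had a mean of 1.07 ± 0.36 in K57N cells and of 0.13 ± 0.36 in F53S cells. With EFNA5 as the ligand, the EPHA2 means were 2.09 ± 0.51 in K57N cells and 0.62 ± 0.35 in F53S cells. The EPHA4 means were then 0.72 ± 0.32 and -0.18 ± 0.39. In both pairs with EFNA5 the F53S arrays overlapped the WT arrays and the K57N arrays did not.

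The 3 pairs of an EphB receptor with EFNB2 had K57N means below WT, of -0.82 ± 0.22 for EPHB2, -1.88 ± 0.17 for EPHB3 and -1.36 ± 0.05 for EPHB4 (SD, n = 3). EPHB4 less EFNB2 was 1.05, -0.60 and -0.45 in WT cells, 1.03, -0.64 and -0.72 in F53S cells, and -1.34, -1.41 and -1.32 in K57N cells. The K57N arrays lay below all others, and the WT and F53S arrays separated by slide and not by line. The pairs with EFNB1 differed in sign: the K57N mean was 0.32 ± 0.49 for EPHB2, with arrays that overlapped those of WT, -0.73 ± 0.45 for EPHB3 and -0.21 ± 0.27 for EPHB4. These differences combine members whose values are given above and were not tested on their own.

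**Figure D3:**
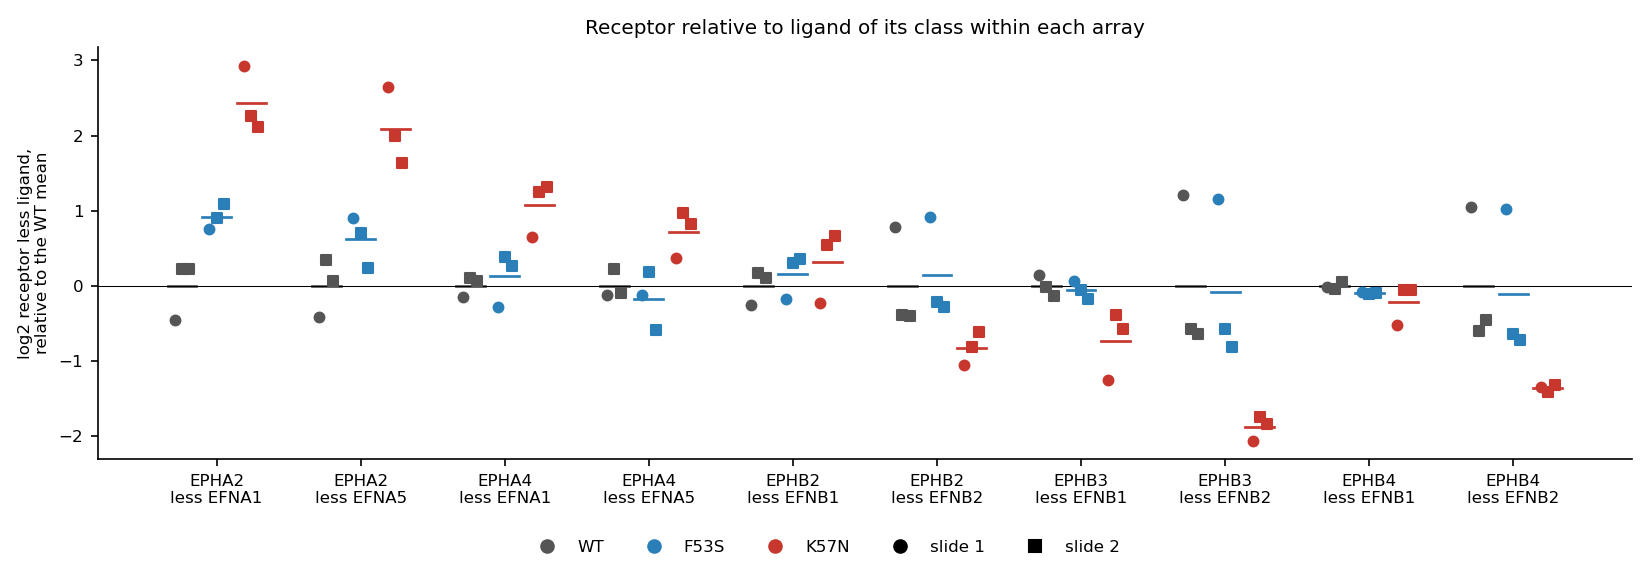
Log2 signal of a receptor less that of a ligand of its class on the same array, relative to the WT mean of the pair (y axis), for 10 pairs (x axis). Circles are slide 1, squares are slide 2, and lines are means of 3 arrays. EPHA2 less EFNA1 is highest in K57N cells (mean 2.44), and the pairs with EFNB2 are lowest there (means -0.82 to -1.88).

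The other members of the family on the array are 8 Eph receptors and 4 ephrins, of which 5 and 3 were tested. None was called in any comparison by limma without the slide when all arrays were used. Over all genes, 1.51% were called higher and 0.739% lower for K57N against WT in that fit. EPHA8 passed the filter only through the K57N line, where all 3 arrays measured it, against 1 array of WT and 2 of F53S, so no difference is given for it and it is left out of the counts. For K57N against WT, limma gave 1 of the other 7 above and 3 below WT at an unadjusted p below 0.05, beside 6.15% and 7.04% of all genes. The methods' t-test with more than 2-fold gave 1, below WT, without adjustment, beside 1.62% of all genes, and 0 with it. EPHA10, a receptor that lacks kinase activity, was at -0.93, -1.65 and -1.62 in WT cells, -1.07, -1.68 and -1.91 in F53S cells, and -2.57, -2.66 and -2.51 in K57N cells. All K57N arrays lay below all others. Its log2 fold change from WT was -1.18 (SE = 0.27, adjusted p = 0.0688), and with the slide as a term it was called lower than in WT (adjusted p = 0.0035) and F53S cells (-1.03, adjusted p = 0.00882). With the slide as a term, normexp background correction put it at -0.80 from WT and -0.70 from F53S, and the deposited values put it at -0.99 from F53S, all under 2-fold and so not called. On slide 2 alone EPHA10 differed from WT by -0.95 (adjusted p = 0.00691) and from F53S by -0.79 (adjusted p = 0.0152), also under 2-fold, and on slide 1 by -1.64 and -1.50. Leaving out single arrays with the slide in the fit, it stayed called against WT for 8 of 9 arrays and against F53S for 7 of 9. The exceptions were K57N replicate 1 (-0.95 from WT and -0.80 from F53S) and F53S replicate 1 (-0.91 from F53S). Without the slide it was called against WT when F53S replicate 1 was left out (-1.18, adjusted p = 0.0321).

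The 3 other ephrins that were tested lay below WT in K57N cells. EFNA3 was at -0.90 (SE = 0.26), EFNA4 at -0.81 (SE = 0.39) and EFNB3 at -0.59 (SE = 0.21), with adjusted p of 0.135, 0.453 and 0.233 without the slide and of 0.0254, 0.0396 and 0.0368 with it, all under 2-fold. The differences were larger on slide 1 (-1.61, -1.45 and -1.03) than on slide 2 (-0.55, -0.48 and -0.38). On slide 2 alone the adjusted p was 0.0582 for EFNA3, 0.0198 for EFNA4 and 0.0425 for EFNB3. Without WT replicate 1, EFNA4 stood at -0.45 in the fit of the lines, and with the slide as a term EFNA3, EFNA4 and EFNB3 then had adjusted p of 0.0896, 0.168 and 0.158. Over the 9 arrays left out in turn with the slide in the fit, the adjusted p of EFNA3 stayed below 0.05 for 8, and that of EFNA4 and of EFNB3 for 3 each. In that fit EFNA3 was called lower without WT replicate 3 (-1.0, limma adjusted p = 0.0496) and without K57N replicate 2 (-1.02, adjusted p = 0.0396). EFNA4 and EFNB3 were called for none of the arrays left out. The K57N arrays lay wholly below the WT arrays for 5 of the 7 ephrins tested, beside 12.7% of all genes, and wholly above for EFNB2, beside 10.2%, and EFNB1 overlapped. With the slide as a term, 4 of the 7 lay below WT at an adjusted p below 0.05, beside 10.8% of all genes. These 4 (EFNA1, EFNA3, EFNA4 and EFNB3) kept this under normexp, quantile normalization and the deposited log2 values with all arrays in the fit. Of 9 receptors tested, EPHA8 left out, the K57N arrays lay wholly below WT for EPHA10 and EPHB3 and wholly above for EPHA2 and EPHB1. These are 2 of 9 in each direction, beside 12.7% of all genes below and 10.2% above.

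EPHB1, a dim receptor, stood at -3.37, -3.31 and -3.71 in WT cells and -3.16, -1.38 and -2.55 in K57N cells (difference 1.1, SE = 0.42, adjusted p = 0.294). The K57N arrays were scattered, and K57N replicate 2 was the highest, without which the difference was 0.61. EPHA3 (-0.83), also dim, and EPHB6 (0.25), well above background on all arrays, had adjusted p of 0.562 and 0.881. Without K57N replicate 3, EPHA3 stood at -1.46 and was called (adjusted p = 0.0325). EPHA1, EPHA5, EPHA6 and EFNA2 were not well above background on all 3 arrays of any line and were not tested.

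**Figure D4:**
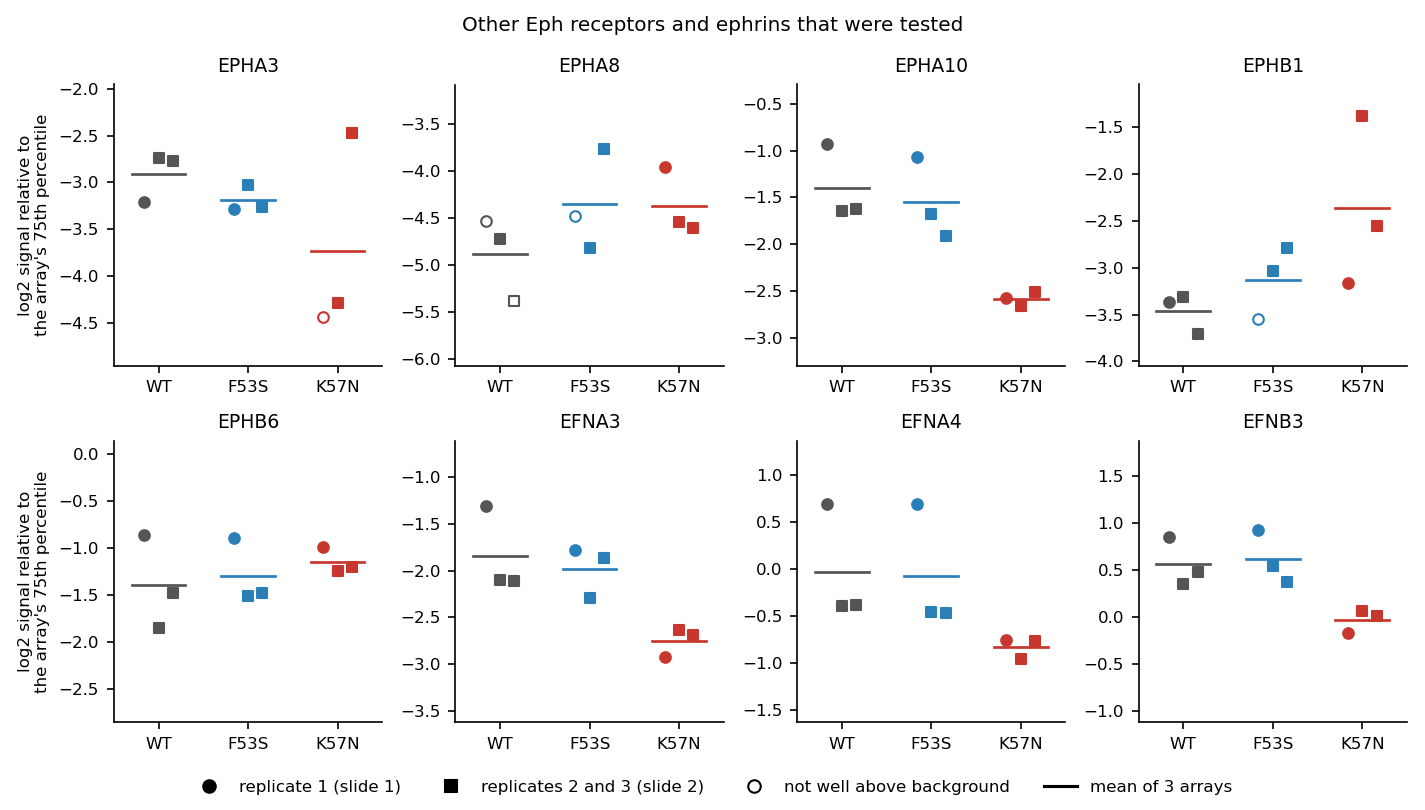
Log2 signal of the other 8 Eph receptors and ephrins tested, relative to the array's 75th percentile (y axis, own range per panel), in WT, F53S and K57N cells (x axis). Circles are replicate 1 (slide 1), squares are replicates 2 and 3 (slide 2), open symbols are not well above background, and lines are means of 3 arrays. The K57N arrays of EPHA10, EFNA3, EFNA4 and EFNB3 lie below all WT and F53S arrays.

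Of 41 genes that act with Eph receptors and ephrins, 38 were tested and 0 were called in any comparison by limma. At these limits, 1.51% of all genes were called higher and 0.739% lower for K57N against WT. For K57N against F53S the shares were 0.953% and 0.245%, and for F53S against WT 0%. A count of 0 among 38 genes is near these shares. The 41 genes were 28 effectors of the receptors, such as adaptors and SRC-family kinases, 7 partners of ephrin reverse signaling, and 6 proteases and phosphatases that cleave or switch off the complexes. Their K57N-WT log2 fold changes ranged from -0.59 to 0.69 with a median of -0.05, beside -0.06 over all genes. At an unadjusted p below 0.05, limma gave 3 above and 1 below WT in K57N cells, beside 6.15% and 7.04% of all genes, and 0 in F53S cells, beside 0.62% and 0.271%. The methods' t-test with more than 2-fold gave 0 in any comparison. Without adjustment, it gave 2.26% of all genes above and 1.62% below for K57N against WT, and 1.72% and 0.859% for K57N against F53S. With the slide as a term, 12 of the 38 had an adjusted p below 0.05 in K57N cells against WT, all under 2-fold, beside 19.4% of all genes in either direction. The medians were -0.02 for F53S against WT and -0.06 for K57N against F53S.

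Outside these lists, the genes whose log2 values followed EPHA2 most closely over the 9 arrays, after the mean of each slide was removed, were FOS (Pearson r = 0.992), NKD2 (0.992) and NCEH1 (0.988). FOS encodes a subunit of the AP-1 transcription factor and differed by 3.47 in K57N cells and by 1.17 in F53S cells from WT (log2). NKD2, a regulator of Wnt signaling, differed by 0.60 and 0.22, and NCEH1, a cholesterol ester hydrolase, by 1.03 and 0.32. For EFNB2 they were IMPA1 (0.998), TOP1 (0.997) and GABPB1 (0.997), with differences of 0.64, 0.97 and 0.93 in K57N cells and of 0.07, 0.10 and 0.10 in F53S cells. IMPA1 is an inositol monophosphatase, TOP1 a DNA topoisomerase and GABPB1 a subunit of an ETS-family transcription factor. The genes were ranked among 16965 candidates, and the values of r are a description over 9 arrays that share 3 lines and 2 slides.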

How the data were processed

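Total RNA of 3 HEK293 lines was profiled on 9 Agilent SurePrint G3 60 K human arrays with 1 dye. The authors deposited the scanner output of Agilent Feature Extraction 10.10.1.1, per the labels, with an intensity per spot (processed signal, after subtraction of background and correction of spatial trends, not scaled between arrays). A table of log2 values, which the authors deposited too, equaled the log2 processed signal less a constant per array within 0.02 for 99.55 to 99.76% of probes. Between-array normalization and the method of p adjustment are not given in the sources used here.

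For the values given here, log2 processed signals were set relative to each array's 75th percentile, computed without control spots, marked spots (278 to 501 per array) were left out, and spots of a probe were averaged. Of 50598 probes, 25397 (19209 genes) passed the scanner software's background flag on all 3 arrays of some line and were tested. A gene was its brightest tested probe. The 3 lines were fitted together with limma 3.58.1 in R 4.3.3, with p adjusted by Benjamini-Hochberg over all probes, and a call needed more than 2-fold with an adjusted p below 0.05. Fits were tested on simulated data. The number of arrays limits the precision, and p measures the spread between experiments of a line.

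Deviations from the line means correlated between lines with r of 0.35 to 0.88 at equal replicate number, over the limit of 0.1 set for pairing. Arrays of unequal number were not correlated, so that pairing beyond a shared slide is not shown. The numbers also share slides, and slide and replicate cannot be told apart for number 1. Alternatives were normexp background correction (offset 50), quantile normalization, no or a stricter filter, marked spots kept, the mean of a gene's probes, 2 lines at a time, replicate and slide blocks, slide 2 alone, the methods' t-test, the deposited log2 values, other fold limits and leaving out each array. For the other Eph receptors, the other ephrins and MAP2K1, single slides and left-out arrays were added after seeing the data.

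Every member was named, as were the other Eph receptors and ephrins, called genes of the pathway lists, the 3 genes most like each called member, and MAP2K1. Members and lists were chosen with earlier results of these data known. Promoter windows are from RefSeq (GRCh38.p14) and matched all 10 members by symbol (14 windows). The result of 1 listed marker of other cell types is not reported here.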

Additional observations from a re-analysis of the deposited data

How the results depend on the processing

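Of 864 log2 fold changes of members recomputed over 32 alternatives, none of a called value changed sign, and 47 of values that were not called did. The count of members called above WT in K57N cells, 2 as reported, was 0 with no filter on dim probes (EPHA2 adjusted p = 0.0901, EFNB2 0.183), 0 with 2 lines fitted at a time (0.0531 and 0.0551), 0 by the adjusted p of the methods' t-test (0.153 and 0.118), and 1 with the slide 2 arrays only. Leaving out an array gave 0 to 2 members, and 1 to 2 with the slide in the fit. The count for K57N against F53S cells, 0 as reported, was 1 (EFNB2) with the replicate block, 1 with the slide block, 1 with the methods' t-test at unadjusted p, and 0 to 2 when an array was left out with the slide in the fit. The added members were EFNB2 and, without K57N replicate 3, also EPHA2 (log2 fold change 1.12, adjusted p = 0.0387). The replicate block changed no other call: EPHA2 and EFNB2 stayed called for K57N against WT (adjusted p = 0.00859 and 0.0123). The cause of these differences was not tested, except that without the filter 50598 probes entered the adjustment and not 25397. All other counts, among them 0 for F53S against WT, were equal under every alternative run. Scaling moved the median of all probes by less than 0.1. EPHA7 gave no tested value, and signal near background limits what can be said of it.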
